A study of Mus musculus with 18 samples.

Results

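Loss of CD28 was examined in Nrp1-negative regulatory T cells (Treg) of the mouse spleen, which the study calls peripheral Treg (pTreg). The comparison took 3 CD28KO pTreg libraries, from CD28-/-Foxp3EGFP mice, against 3 WT pTreg libraries, from Foxp3EGFP mice, chosen by their labels out of 18 libraries in all. Both genotypes are on the C57BL/6 strain and both carry Foxp3EGFP, a green fluorescent reporter of Foxp3, so the reporter is shared by the controls. The other 12 libraries are CD28KO and WT Nrp1+ Treg (tTreg, called thymic) and CD28KO and WT conventional T cells (Tconv), 3 of each, and serve here to show where the pTreg response differs. Ages and sexes are not given in the labels used here. Total RNA was sequenced as single reads of 50 nt and each library holds 1 expression value per gene in FPKM (fragments per kilobase of transcript, scaled to the mapped fragments of the library). The labels do not state whether replicates are separate animals, so p-values here speak only of the spread among these samples, which may be technical.

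CD28 is the classical costimulatory receptor of T cells. It signals when it binds CD80 or CD86 on antigen-presenting cells, and its signal adds to that of the antigen receptor. In Treg it is known to support development in the thymus, homeostasis and the step from a resting to an effector state. Effector Treg are known by suppressive and migratory products such as IL-10, by inhibitory receptors and by chemokine receptors. Nrp1 (neuropilin 1) is a surface receptor that is high on most thymus-derived Treg, and its absence is used as a mark of Treg formed outside the thymus.

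The libraries of both genotypes carried the transcripts of Nrp1-negative Treg. Foxp3, the transcription factor that defines Treg, was at 81.4, 87.2 and 111 FPKM in CD28KO pTreg, against 56.0, 106 and 107 FPKM in WT pTreg. Nrp1 was at 0.449, 0.694 and 0.798 FPKM in CD28KO pTreg, against 0.579, 0.871 and 0.911 FPKM in WT pTreg. The 6 Treg markers found in the files (Foxp3, Il2ra, Ctla4, Ikzf2, Ikzf4 and Tnfrsf18) summed to 369 to 454 FPKM in CD28KO pTreg and 325 to 544 FPKM in WT pTreg, with overlap. Cd28 itself was not lower in the libraries labelled CD28KO: it was at 54.1, 87.3 and 86.8 FPKM there, against 31.5, 59.7 and 53.2 FPKM in WT pTreg (0.67 ± 0.31 on the log2 scale, adjusted p = 0.765, limma). A value summed over the whole gene cannot show whether part of it is deleted, so the genotypes are known only from the labels.

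WT pTreg replicate 1 stood apart from the other 5 libraries. Its median log2(FPKM + 1) over the tested genes was 2.99, against 3.57 to 3.87 in the others, and the small RNA locus Mir5105 took 20.8% of its FPKM sum, against 3.97% to 10.3%. It was the lowest of the WT pTreg libraries in 91.5% of tested genes, which leaves most genes lower in the WT mean. Among the called genes described below it was the lowest WT library in 13 of 24. FPKM sums of the 6 libraries ran from 524479 to 688042 and 10703 to 11532 genes reached 1 FPKM. Read depth is unknown, so no counting intervals are given.

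With CD28 missing, pTreg had lower transcripts of a small set of effector products and inhibitory receptors, while most of the transcriptome did not pass the test. Of 11469 genes tested, limma called 24 (0.209%) at a Benjamini-Hochberg adjusted p under 0.05, of which 22 were lower (0.192%) and 2 were higher (0.0174%) in CD28KO pTreg. At an unadjusted p under 0.05 in limma there were 454 of the 11469 genes. In this fit the share is below the 0.05 that would be reached if no gene differed, so this count is no sign of further changes. The unadjusted limma count depended on the setting. It was 1245 with the replicate number as a block, 859 after quantile normalization and 213 with the compared groups alone in the fit. The share of 454 in 11469 is also the background for the unadjusted counts of the lists below. Large falls were those of the chemokine gene Ccl5, the cytokine gene Il10, the receptor genes Tigit and Klrg1 and the pseudogene Gm6637, with mean FPKM 9.9-fold to 22.6-fold lower in CD28KO pTreg. In all 24 genes the 3 libraries of each genotype did not overlap, a pattern found in 151 tested genes with all CD28KO libraries below all WT libraries (1.32%) and in 526 genes with all CD28KO libraries above (4.59%). The call itself favours such separation, so it adds nothing to it. All changes below are CD28KO minus WT differences of log2(FPKM + 1) ± SE, a scale that makes the fold of weakly expressed genes look smaller, and the median change of all tested genes was 0.19. That median became -0.06 without WT pTreg replicate 1 and 0.02 after quantile normalization, so the direction of small changes depends on the scaling.

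**Figure D1:**
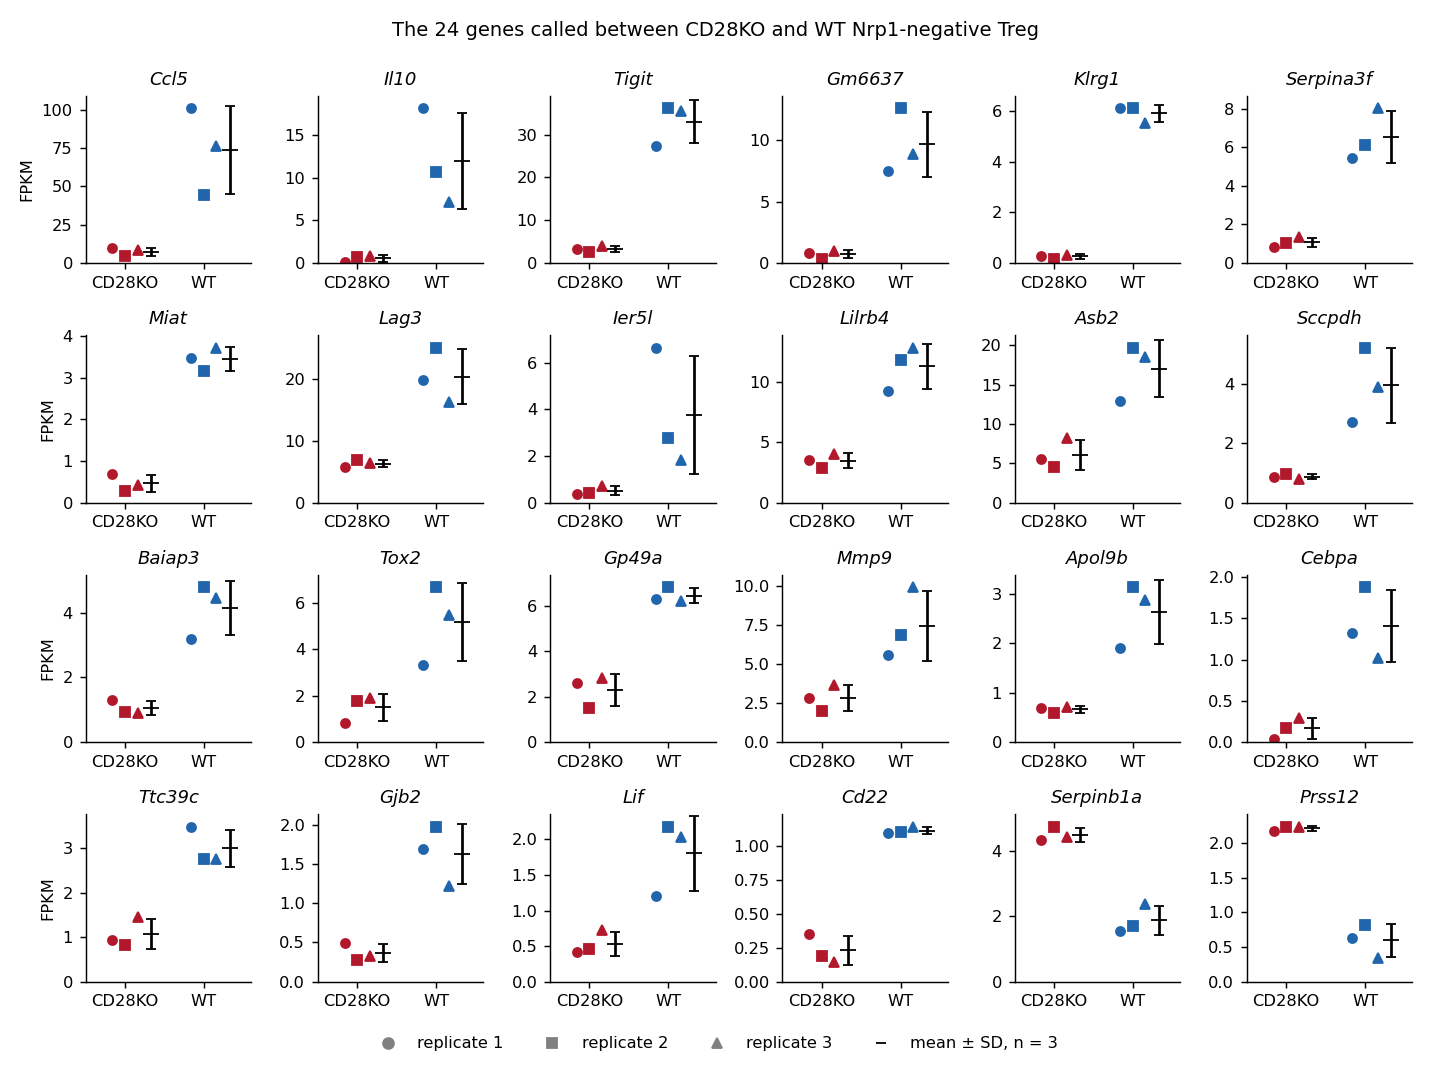
FPKM of the 24 called genes in each pTreg library, with CD28KO left and WT right in each panel, symbols for replicates 1 to 3 and a black bar for the mean ± SD (n = 3), each vertical axis starting at 0. The genotypes do not overlap in any panel, and WT pTreg replicate 1 (circle) is the highest WT library for Ccl5, Il10, Ier5l and Ttc39c.

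Promoter sequences are shown for the called genes with the largest changes that moved together, as the stretch of DNA around a listed start site of transcripts that fell together. Of the 6 named genes with the largest change, Tigit, Serpina3f and Miat had an entry in the RefSeq promoter table (GRCm38.p6), which holds 250 bases before and 50 after a start site. They lie at chr16:43664135-43664434 on the minus strand for Tigit, chr12:104214294-104214593 on the plus strand for Serpina3f and chr5:112228899-112229198 on the minus strand for Miat. Each is written 5′ to 3′ on the gene's strand. Capitals mark matches on either strand to GGAAA, the core of the site bound by NFAT, a factor of antigen receptor signalling.
Tigit: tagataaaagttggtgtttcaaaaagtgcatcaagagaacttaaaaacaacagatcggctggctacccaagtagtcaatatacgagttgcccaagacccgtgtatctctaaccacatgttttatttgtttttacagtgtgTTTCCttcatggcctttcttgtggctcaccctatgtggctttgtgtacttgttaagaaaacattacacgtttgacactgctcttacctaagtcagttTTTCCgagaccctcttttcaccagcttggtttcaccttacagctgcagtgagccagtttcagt
Serpina3f: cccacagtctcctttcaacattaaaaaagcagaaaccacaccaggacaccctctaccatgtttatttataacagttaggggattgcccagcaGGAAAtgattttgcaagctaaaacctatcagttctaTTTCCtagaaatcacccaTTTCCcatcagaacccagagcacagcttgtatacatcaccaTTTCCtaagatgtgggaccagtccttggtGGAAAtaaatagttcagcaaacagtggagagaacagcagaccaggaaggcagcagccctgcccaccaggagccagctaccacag
Miat: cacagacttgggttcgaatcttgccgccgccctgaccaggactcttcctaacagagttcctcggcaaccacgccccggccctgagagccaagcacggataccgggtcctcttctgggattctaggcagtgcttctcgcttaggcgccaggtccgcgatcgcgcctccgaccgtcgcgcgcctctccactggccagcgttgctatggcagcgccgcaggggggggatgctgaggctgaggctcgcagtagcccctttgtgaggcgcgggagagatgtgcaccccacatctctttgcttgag
The core occurred at 2 places in the Tigit window, at 5 in the Serpina3f window and at none in the Miat window. At least 1 copy is present in 61.3% of the 27025 promoters of the table, so its presence is common. Neither TGANTCA, the AP-1 motif found in 7.93% of promoters, nor the NF-kB site, found in 4.35%, occurred in the 3 windows on either strand. These matches describe letters in a window and not bound sites. The Miat window lies within the gene as GENCODE places it (112213228 to 112229395), so it is not upstream of that gene. Serpina3f has 2 listed starts, and 1 window is shown.

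Among cytokines and chemokines, 3 genes fell. Il10 encodes an anti-inflammatory cytokine through which Treg restrain immune responses at mucosal surfaces (chromosome 1, 131019845 to 131024974, GRCm38). It was at 0.103, 0.713 and 0.821 FPKM in CD28KO pTreg, against 18.2, 10.7 and 7.16 FPKM in WT pTreg. Every CD28KO library was under 1 FPKM and every WT library above 7, and the change was -3.02 ± 0.29 (adjusted p = 4.49e-05). Ccl5, a chemokine of activated and cytotoxic T cells, was at 9.59, 4.51 and 8.25 FPKM in CD28KO pTreg, against 101, 44.1 and 76.2 FPKM in WT pTreg (-3.12 ± 0.45, adjusted p = 0.00373). Unlike Il10, it stayed well above 1 FPKM in every CD28KO library. Lif, a cytokine of the IL-6 family, was at 0.415, 0.456 and 0.729 FPKM in CD28KO pTreg, against 1.20, 2.18 and 2.04 FPKM in WT pTreg (-0.86 ± 0.16, adjusted p = 0.0402). Its levels were low in both genotypes, and its call was lost in 5 of the 6 fits that left out a pTreg library, all but that without WT pTreg replicate 1.

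Inhibitory receptors formed the largest group of falls. Tigit, which competes with an activating receptor for ligands of the nectin family (chromosome 16, 43648867 to 43664146), was at 3.21, 2.63 and 4.0 FPKM in CD28KO pTreg, against 27.3, 36.2 and 35.6 FPKM in WT pTreg (-2.99 ± 0.41, adjusted p = 0.00295). Klrg1, a lectin-like receptor for cadherins that marks terminally differentiated cells (chromosome 6, 122270596 to 122282882), was at 0.295, 0.163 and 0.328 FPKM in CD28KO pTreg, against 6.11, 6.12 and 5.52 FPKM in WT pTreg (-2.46 ± 0.37, adjusted p = 0.0053). For Klrg1 the WT libraries, replicate 1 included, lay close together, and every CD28KO library was under 1 FPKM. Lag3, a CD4-like receptor for MHC class II (chromosome 6, 124904361 to 124911705), was at 5.70, 6.85 and 6.33 FPKM in CD28KO pTreg, against 19.8, 25.1 and 16.3 FPKM in WT pTreg (-1.54 ± 0.28, adjusted p = 0.026). Lag3 lost its call in 5 of the 6 fits that left out a pTreg library, all but that without WT pTreg replicate 3, and without WT pTreg replicate 1 its change was -1.55 (adjusted p = 0.0637). In bulk samples, fewer cells that carry a transcript and less RNA per cell cannot be told apart, for these genes and for all others here.

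A called transcript outside the naming rule, chosen after its values were seen, was Gm6637. GENCODE lists it as a processed pseudogene 12781 bases from Klrg1 on the opposite strand of chromosome 6 (122295664 to 122296045). It was at 0.845, 0.351 and 0.965 FPKM in CD28KO pTreg, against 7.48, 12.6 and 8.90 FPKM in WT pTreg, a difference of -2.62 ± 0.38 (adjusted p = 0.00446). Klrg1 averaged 5.92 ± 0.343 FPKM in WT pTreg and 31.2 ± 2.61 FPKM in WT tTreg, and Gm6637 averaged 9.66 ± 2.64 FPKM in WT pTreg and 20.8 ± 2.02 FPKM in WT tTreg (SD, n = 3 each). Levels of a pseudogene can include reads of its parent gene, and how these were assigned is not given in the sources used here.

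The remaining receptors that fell are better known from other cell types. Lilrb4, an inhibitory receptor of myeloid cells, was at 3.50, 2.88 and 4.04 FPKM in CD28KO pTreg, against 9.20, 11.8 and 12.8 FPKM in WT pTreg (-1.45 ± 0.24, adjusted p = 0.0118). Its near-identical paralog Gp49a was at 2.60, 1.49 and 2.81 FPKM in CD28KO pTreg, against 6.32, 6.82 and 6.19 FPKM in WT pTreg (-1.20 ± 0.19, adjusted p = 0.00623). Reads can be shared within this pair, so the calls are not separate findings. Lilrb4 lost its call in 4 of the 6 fits that left out a pTreg library, and Gp49a in 1. Cd22, a sialic acid-binding inhibitory lectin of B cells, was at 0.352, 0.188 and 0.147 FPKM in CD28KO pTreg, against 1.09, 1.10 and 1.14 FPKM in WT pTreg (-0.78 ± 0.12, adjusted p = 0.00742), and lost its call in 2 of these 6 fits. The 11 B cell markers, Cd22 among them, summed to 5.09 to 7.40 FPKM in CD28KO pTreg and 6.25 to 9.75 FPKM in WT pTreg with overlap, and 8 of them were under 1 FPKM in all 6 libraries. The 17 myeloid markers, which include Cebpa, summed to 25.0 to 72.8 FPKM in CD28KO pTreg and 28.4 to 90.4 FPKM in WT pTreg, also with overlap. Their part in these falls was not tested.

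Regulators of transcription and protein turnover were fewer. Asb2, the substrate-binding subunit of a ubiquitin ligase (chromosome 12, 103321142 to 103356001), was at 5.49, 4.47 and 8.19 FPKM in CD28KO pTreg, against 12.9, 19.7 and 18.5 FPKM in WT pTreg (-1.37 ± 0.26, adjusted p = 0.0402). Tox2, an HMG-box factor known from follicular helper T cells (chromosome 2, 163203125 to 163324170), was at 0.844, 1.75 and 1.90 FPKM in CD28KO pTreg, against 3.34, 6.68 and 5.50 FPKM in WT pTreg (-1.29 ± 0.26, adjusted p = 0.0498). Both lay close to the threshold and lost their call in most fits that left out a pTreg library, 4 of 6 for Asb2 and 5 of 6 for Tox2. Cebpa, which drives the differentiation of myeloid cells as a transcription factor (chromosome 7, 35119293 to 35121928), was at 0.037, 0.173 and 0.294 FPKM in CD28KO pTreg, against 1.32, 1.88 and 1.02 FPKM in WT pTreg (-1.03 ± 0.20, adjusted p = 0.0448). It lost its call in each of the 6 such fits, and without WT pTreg replicate 1 its adjusted p was 0.0796. Foxp3 (0.10 ± 0.73) and Ikzf2 (-0.64 ± 0.74), the gene of the Treg factor Helios, did not pass. These SEs come from the spread of all 18 libraries, and CD28KO Tconv ran from 0.067 to 21.1 FPKM for Foxp3. With the compared groups alone in the fit the SEs were 0.30 for Foxp3 and 0.38 for Ikzf2, and neither passed.

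Proteases and protease inhibitors moved in both directions. Serpina3f, a serine protease inhibitor of a tandem gene cluster (chromosome 12, 104214544 to 104221129), was at 0.837, 1.02 and 1.34 FPKM in CD28KO pTreg, against 5.43, 6.10 and 8.02 FPKM in WT pTreg (-1.86 ± 0.16, adjusted p = 7.14e-06). Its close relative Serpina3g was at 15.0, 13.5 and 21.2 FPKM in CD28KO pTreg, against 30.5, 43.9 and 48.4 FPKM in WT pTreg (-1.26 ± 0.41, adjusted p = 0.664), and reads may be split between such relatives. Mmp9, a secreted gelatinase, was at 2.80, 1.97 and 3.62 FPKM in CD28KO pTreg, against 5.56, 6.83 and 9.90 FPKM in WT pTreg (-1.14 ± 0.18, adjusted p = 0.00742). The 2 genes that rose belong here too. Prss12, the serine protease neurotrypsin, was at 2.18, 2.24 and 2.23 FPKM in CD28KO pTreg, against 0.628, 0.817 and 0.338 FPKM in WT pTreg (1.02 ± 0.15, adjusted p = 0.00373). Serpinb1a, an inhibitor of neutrophil proteases, was at 4.32, 4.74 and 4.43 FPKM in CD28KO pTreg, against 1.55, 1.70 and 2.38 FPKM in WT pTreg (0.94 ± 0.17, adjusted p = 0.0252). Prss12 kept its call in all 6 fits without a pTreg library, while Serpinb1a kept it only without WT pTreg replicate 3 and had an adjusted p = 0.0686 without WT pTreg replicate 1.

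The long noncoding RNA Miat (chromosome 5, 112213228 to 112229395), known from heart and retina, had the smallest p of all tested genes in the main fit. It was at 0.677, 0.283 and 0.431 FPKM in CD28KO pTreg, against 3.49, 3.16 and 3.73 FPKM in WT pTreg (-1.61 ± 0.12, adjusted p = 1.18e-06). That fit takes the spread from all 18 libraries, and Miat was at 0.165 FPKM or less in every tTreg and Tconv library. With the compared groups alone in limma its SE was 0.23 and its adjusted p was 0.0025. Klrg1 (3.82e-05) and Tigit (9.3e-05) had smaller ones there. The falls without a group of their own were smaller. They were Ier5l (-1.53 ± 0.30, an immediate early gene relative), Sccpdh (-1.37 ± 0.17, an oxidoreductase-like protein), Baiap3 (-1.32 ± 0.20, a vesicle release protein), Apol9b (-1.11 ± 0.19, an apolipoprotein L), Ttc39c (-0.95 ± 0.18) and Gjb2 (-0.94 ± 0.18, the gap junction protein connexin 26). Ier5l was carried most by the library that stands apart. It was at 0.386, 0.422 and 0.719 FPKM in CD28KO pTreg, against 6.65, 2.79 and 1.83 FPKM in WT pTreg, and its adjusted p was 0.108 without WT pTreg replicate 1. A total of 12 tested genes had a larger fitted change than any called gene, all of them loci of microRNAs and other small RNAs listed at 0 in at least 1 of the 6 libraries, and none was called.

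The same genes were then set beside their values in the other sorted populations. Of the 24, 10 were also lower in CD28KO tTreg, where limma called 10 lower genes in all (0.0872%), and 8 were also lower in CD28KO Tconv, where it called 61 lower (0.532%). The 10 shared with tTreg were Asb2, Tox2, Cebpa, Lilrb4, Gp49a, Cd22, Sccpdh, Ier5l, Apol9b and Gjb2, and Asb2, Tox2, Cebpa and Cd22 were lower in all 3 populations. The 8 shared with Tconv were these 4 and Ccl5, Lag3, Baiap3 and Ttc39c. These tests used the 11469 genes that pass the filter in pTreg, so genes expressed in the other populations alone are not counted. The remaining 10, called in neither, were Il10, Tigit, Klrg1, Gm6637, Serpina3f, Miat, Mmp9, Lif, Prss12 and Serpinb1a. For some of these the CD28KO Tconv libraries were uneven, at 0.726 to 7.9 FPKM for Tigit, 0.0 to 3.22 for Klrg1 and 0.0643 to 3.12 for Gm6637. CD28KO Tconv replicate 3 had Foxp3 at 21.1 FPKM, as described below, and its part in these values was not tested.

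A call in pTreg and none elsewhere does not show a difference, so the difference of the CD28 effects was tested. Against tTreg it passed for 2 genes (0.0174%), Miat and Serpina3f, and against Tconv for 5 (0.0436%), Miat, Serpina3f, Myo1f, S100a4 and S100a6. Miat averaged 0.0343 ± 0.0438 FPKM in CD28KO tTreg and 0.085 ± 0.0494 FPKM in WT tTreg (SD, n = 3 each), so it was low in Nrp1+ Treg of both genotypes. In Tconv Miat averaged 0.0155 ± 0.0192 FPKM in CD28KO and 0.142 ± 0.022 FPKM in WT. On the log2(FPKM + 1) scale the limma difference of effects was -1.54 ± 0.16 (adjusted p = 0.000418) against tTreg. Against Tconv it was -1.44 ± 0.16 (adjusted p = 0.00109). At such low levels this scale leaves little room for a change in tTreg or Tconv. These differences therefore do not show that the fold of Miat was smaller there. Serpina3f averaged 1.28 ± 0.0396 FPKM in CD28KO tTreg and 1.59 ± 0.314 FPKM in WT tTreg, with a difference of effects of -1.68 ± 0.22 (adjusted p = 0.00411) against tTreg. In Tconv it averaged 0.155 ± 0.121 FPKM in CD28KO and 0.644 ± 0.14 FPKM in WT, with a difference of -1.35 ± 0.22 (adjusted p = 0.0377). With a pseudocount of 0.1 the limma difference against Tconv was -0.83 (adjusted p = 0.461), so a smaller fold of Serpina3f in Tconv is not shown either. WT pTreg had the highest mean of the 6 groups for both genes, at 3.46 ± 0.287 FPKM for Miat and 6.52 ± 1.34 FPKM for Serpina3f.

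For the largest falls the tests of difference did not pass. Il10 fell by 3.02 in pTreg, and in tTreg it averaged 1.26 ± 0.576 FPKM in CD28KO and 4.54 ± 1.52 FPKM in WT (-1.29 ± 0.29, adjusted p = 0.219), with a difference of -1.73 ± 0.42 (adjusted p = 0.851). Tigit averaged 31.0 ± 3.69 FPKM in CD28KO tTreg and 85.9 ± 12.4 FPKM in WT tTreg (-1.44 ± 0.41, adjusted p = 0.658), with a difference of -1.56 ± 0.58 (adjusted p = 0.851). Its mean in WT pTreg was 33.1 ± 4.97 FPKM, close to that in CD28KO tTreg. For Klrg1 the change was -1.73 ± 0.37 in tTreg and -0.02 ± 0.37 in Tconv, and for Mmp9 it was -0.003 ± 0.18 in tTreg. The Tconv value of Klrg1 rests on uneven libraries, at 0.0 to 3.22 FPKM in CD28KO Tconv (1.15 ± 1.79), against 0.303 to 1.43 FPKM in WT Tconv. Ccl5 fell in Tconv by 4.85 ± 0.45 (adjusted p = 1.96e-05), and its difference between pTreg and Tconv was 1.73 ± 0.63 (adjusted p = 0.466).

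Myo1f, S100a4 and S100a6 are not among the 24, and their difference from Tconv lies in falls in CD28KO Tconv. Myo1f, an unconventional myosin of leukocytes, was at 9.76, 9.41 and 12.7 FPKM in CD28KO pTreg, against 8.34, 12.8 and 12.2 FPKM in WT pTreg, and averaged 1.07 ± 0.629 FPKM in CD28KO Tconv and 11.1 ± 2.73 FPKM in WT Tconv (difference of effects 2.51 ± 0.33, adjusted p = 0.00512). S100a4, a calcium-binding protein of memory and effector cells, was at 112, 78.0 and 108 FPKM in CD28KO pTreg, against 83.1, 104 and 76.1 FPKM in WT pTreg (difference of effects 3.34 ± 0.55, adjusted p = 0.0377). S100a6 gave 3.13 ± 0.53 (adjusted p = 0.0456). Foxp3 was at 21.1 FPKM in CD28KO Tconv replicate 3, a Treg transcript level unlike that of its group, against 0.067 to 0.285 FPKM in the rest of Tconv. Without that library the CD28 effect differed between pTreg and Tconv in 15 of 11469 tested genes.

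**Figure D2:**
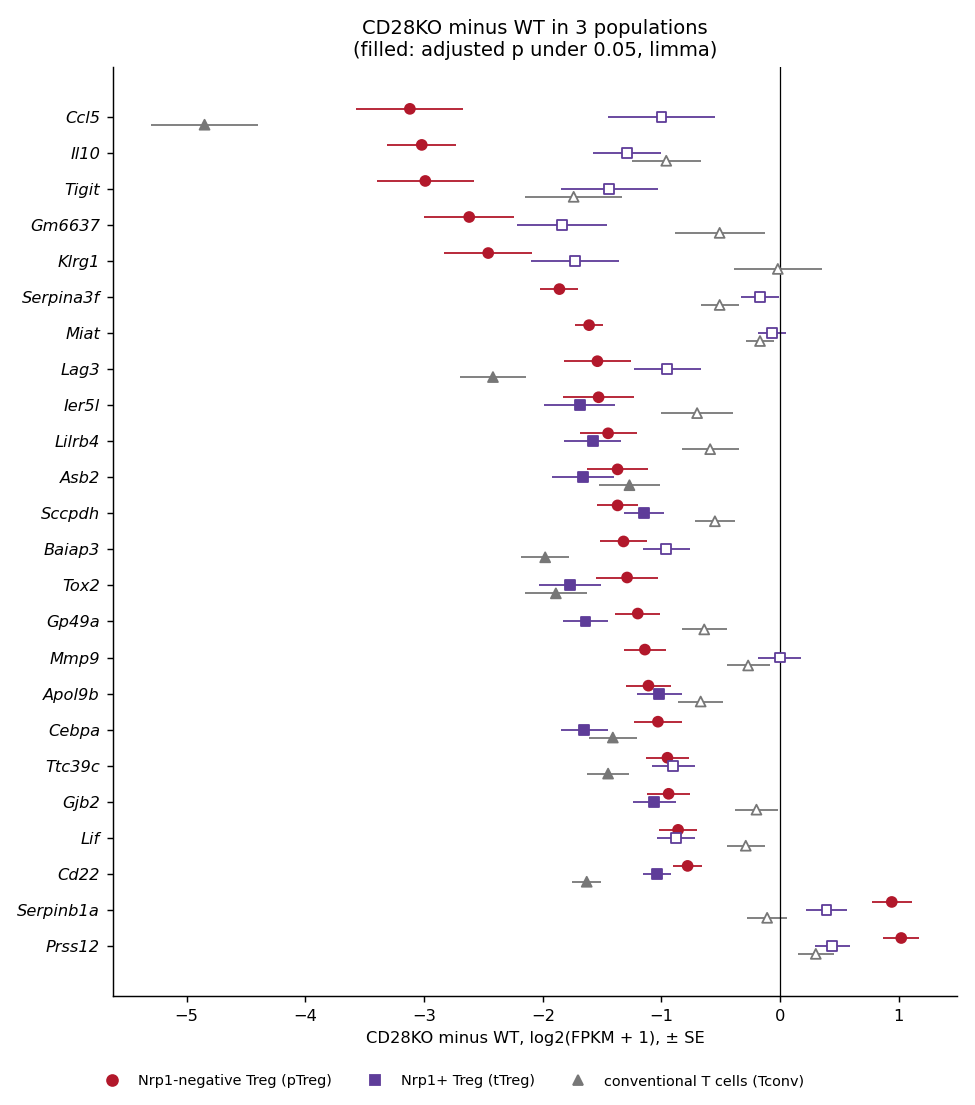
Change of the 24 called genes, CD28KO minus WT in log2(FPKM + 1) with the SE of the limma fit, in pTreg (circles), tTreg (squares) and Tconv (triangles), filled where the adjusted p was under 0.05. All 24 changes have the same sign in tTreg and 23 have it in Tconv, while Miat, Serpina3f and Mmp9 lie near 0 in tTreg.

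Lists of gene groups were set beside these calls. They were chosen with earlier results of these data known, and 17 of the 24 called genes are in at least 1 of them. Every list count below is therefore a description and no separate support. The effector Treg list had 4 of 25 tested genes lower (Il10, Tigit, Klrg1 and Lag3) and none higher, with a median change of -0.79, and 24 of 25 lay below the median of all genes. The count lower was 10 after quantile normalization, 9 after median centring, 7 with the replicate number as a block (Gzmb, Ebi3 and Fgl2 added) and 2 with a pseudocount of 0.1 (Il10 and Tigit). Ebi3, the shared chain of IL-27 and IL-35, was at 1.67, 0.852 and 1.81 FPKM in CD28KO pTreg, against 5.07, 7.08 and 6.65 FPKM in WT pTreg (-1.58 ± 0.34, adjusted p = 0.0884, and 0.0304 with the block). Gzmb, the cytotoxic granule protease granzyme B, was at 2.85, 0.857 and 1.75 FPKM in CD28KO pTreg, against 8.13, 4.0 and 6.99 FPKM in WT pTreg (-1.41 ± 0.31, adjusted p = 0.109, and 0.0018 with the block). Neither overlapped between genotypes. Icos, a costimulatory relative of CD28, was at 31.5, 31.9 and 38.3 FPKM in CD28KO pTreg, against 30.3, 63.0 and 56.3 FPKM in WT pTreg (-0.48 ± 0.22, adjusted p = 0.765), and it passed after quantile normalization (-0.66, adjusted p = 0.0175). Ctla4 was at 106, 124 and 130 FPKM in CD28KO pTreg, against 122, 168 and 165 FPKM in WT pTreg (-0.33 ± 0.58, and an SE of 0.27 with the compared groups alone). The earlier results of these data were known when the list was made, so its count is a description.

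The list of coinhibitory receptors had 6 of 14 tested genes lower (Tigit, Klrg1, Lag3, Lilrb4, Gp49a and Cd22), with a median of -0.56. Gp49a is on it as the paralog of Lilrb4, and its place there does not show that it inhibits. Reads can be shared within that pair, so the 6 are not all separate findings. The count was 2 with a pseudocount of 0.1 (Tigit and Cd22) and 2 with the compared groups alone in the fit (Tigit and Klrg1). Pdcd1, the gene of PD-1, was at 4.12, 4.31 and 5.20 FPKM in CD28KO pTreg, against 7.09, 15.8 and 11.9 FPKM in WT pTreg (-1.12 ± 0.40, adjusted p = 0.765). It did not overlap between genotypes but varied widely within WT. The Tfh list, of follicular helper genes, had 2 of 13 lower, Tox2 and Asb2, with a median of -0.12, and 0 lower with a pseudocount of 0.1 or with the compared groups alone. In limma the CD28 family and its ligands had 0 of 9 called with a median of -0.28, and costimulatory receptors 0 of 13 with a median of -0.03, each with 4 genes at an unadjusted p under 0.05.

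Genes of Th1 and cytotoxic cells had 1 of 18 lower, Ccl5, with a median of -0.60 and 11 genes at an unadjusted p under 0.05. The count was 3 with the block, Gzmb among them, and 2 after quantile normalization or without WT pTreg replicate 1. Tbx21, the lineage factor of Th1 cells, was at 1.94, 0.946 and 0.717 FPKM in CD28KO pTreg, against 2.11, 3.11 and 2.63 FPKM in WT pTreg (-0.75 ± 0.22, adjusted p = 0.474). Ifng was at 1.75, 1.12 and 0.990 FPKM in CD28KO pTreg, against 9.33, 2.05 and 3.65 FPKM in WT pTreg (-1.22 ± 0.49, adjusted p = 0.765), with WT pTreg replicate 1 far above the rest. The receptor gene Il18r1 lay on the other side, at 24.3, 26.2 and 32.8 FPKM in CD28KO pTreg, against 8.14, 19.5 and 19.3 FPKM in WT pTreg (0.87 ± 0.27, adjusted p = 0.541, and 0.0404 after quantile normalization). The 10 NK cell markers summed to 4.53 to 6.57 FPKM in CD28KO pTreg and 10.6 to 16.3 FPKM in WT pTreg without overlap. Of these, 8 were under 1 FPKM in all 6 libraries and those above it were Nkg7 and Eomes, which activated T cells also express. The part of these cells in the Th1 values was not tested.

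**Figure D3:**
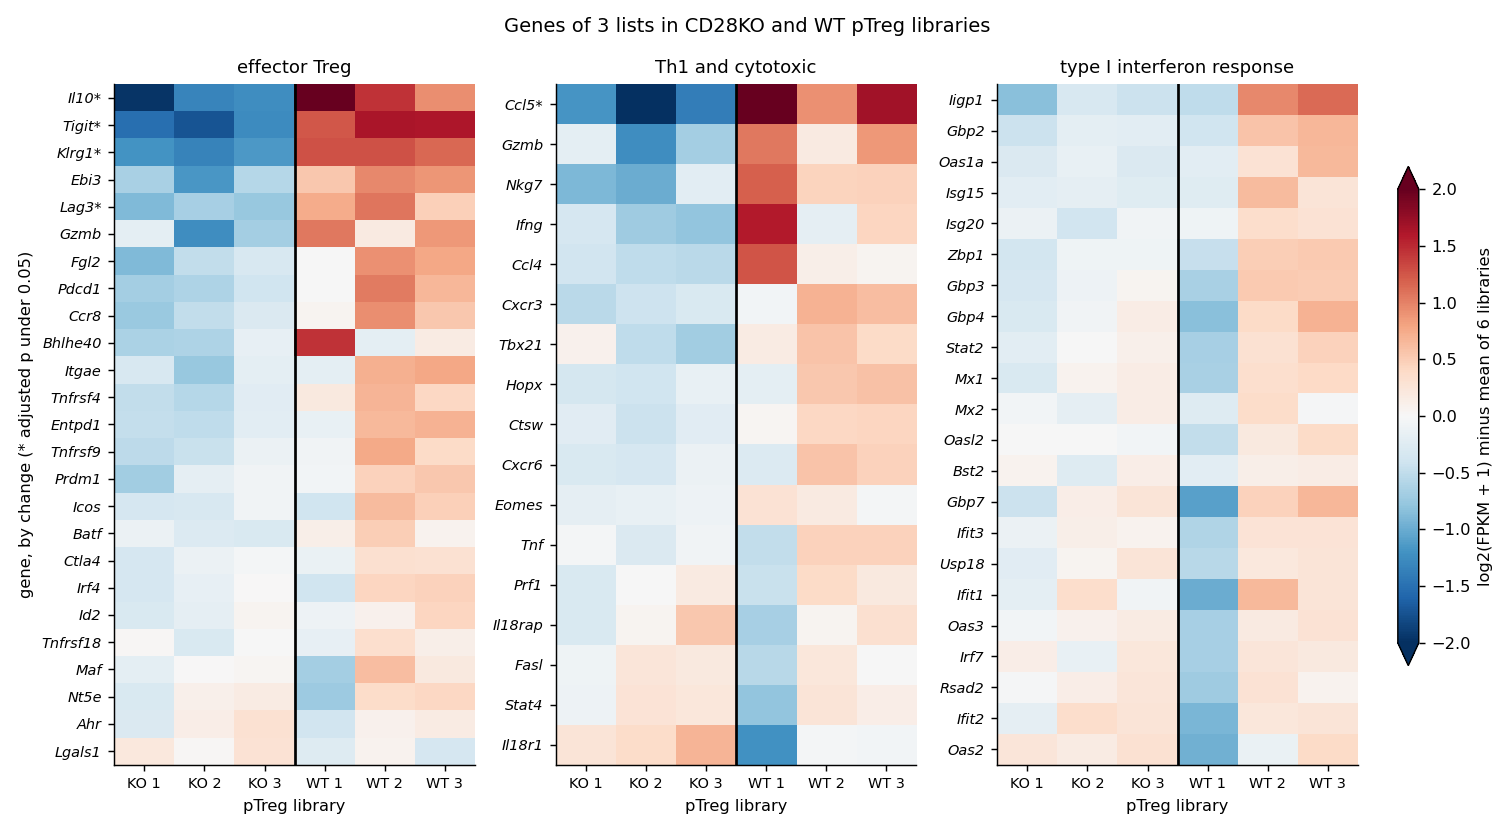
Tested genes reported here of the effector Treg, Th1 and cytotoxic, and type I interferon lists (rows, ordered by change) in the CD28KO and WT pTreg libraries (columns), coloured by log2(FPKM + 1) minus the mean of the 6 libraries, with colours capped at -2 and 2 and an asterisk at an adjusted p under 0.05. Il10, Tigit, Klrg1 and Ccl5 separate the genotypes in every library, while for the interferon genes WT pTreg replicate 1 lies with the CD28KO libraries or below them. That library was the lowest of the 6 in 16 of 23 tested genes of the interferon list, beside 85.8% of all tested genes.

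Serpins and proteases had 2 of 18 lower and 2 higher, the genes given above, and with the compared groups alone 1 lower, Serpina3f, and 0 higher. The list of IL-2 and STAT5 genes had 2 of 21 lower, Il10 and Lif, with a median of -0.05 (1, Il10, with a pseudocount of 0.1 or the compared groups alone), immediate early genes 1 of 19, Ier5l, with a median of -0.13, and the Treg signature 1 of 18, Tigit, with a median of -0.20. In the immediate early list WT pTreg replicate 1 was the highest WT library in 12 of 19 genes, against 3.23% of all tested genes. Nr4a1, an orphan nuclear receptor induced by the antigen receptor, shows this, at 39.4, 49.1 and 56.3 FPKM in CD28KO pTreg, against 141, 56.4 and 59.8 FPKM in WT pTreg (-0.70 ± 0.42, adjusted p = 0.765). The Th2 list had 1 of 5 lower, Il10 again, and the Th17 list 0 of 6, with 0 at an unadjusted p under 0.05.

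Core machinery gave no calls in the main limma fit. Antigen receptor and CD28 signalling components had 0 of 30 called with a median of 0.22, close to that of all genes. NF-kB subunits and targets (0 of 20, median 0.07), BCL2 family and death receptor genes (0 of 20, 0.10), cell cycle (0 of 24, -0.08), glycolysis (0 of 16, 0.06), cholesterol and fatty acid synthesis (0 of 22, 0.16), TGF-beta (0 of 13, 0.12), chemokine receptors and homing genes (0 of 19, 0.07), anergy and TCR feedback (0 of 16, 0.14), S100, galectin and annexin genes (0 of 13, 0.14), heat shock (0 of 10, 0.12) and cytosolic ribosomal proteins (0 of 25, 0.14) had none either. At an unadjusted p under 0.05 there were 5 genes each in the BCL2 and chemokine receptor lists, 3 in the NF-kB list, 2 in the cell cycle list, 1 each in the glycolysis and anergy lists and 0 in the rest of these. Without WT pTreg replicate 1 the medians of these lists ran from -0.31 (chemokine receptors) to -0.01 (S100), beside -0.06 for all genes. The chemokine receptor list then had 1 gene lower, and 2 after quantile normalization of all libraries. The anergy list had 1 lower after quantile normalization, Egr2. Bcl2, which guards against apoptosis and is tied to IL-2 and IL-7 signals, averaged 44.8 ± 7.18 FPKM in CD28KO pTreg and 43.1 ± 17.7 FPKM in WT pTreg. Mki67, a mark of cycling cells, was at 1.26, 1.24 and 1.51 FPKM in CD28KO pTreg, against 1.41, 1.86 and 1.80 FPKM in WT pTreg (-0.20 ± 0.15, adjusted p = 0.765). A missed threshold does not show that these genes were equal between genotypes.

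Resting and naive T cell genes had the highest median of the lists, 0.34, with 0 of 19 called and 4 at an unadjusted p under 0.05, and it was 0.05 without WT pTreg replicate 1. Il7r, the receptor of the survival cytokine IL-7, was at 66.9, 95.4 and 86.7 FPKM in CD28KO pTreg, against 15.3, 41.5 and 48.6 FPKM in WT pTreg (1.35 ± 0.33, adjusted p = 0.178, and 0.00876 with the block). The genotypes did not overlap, also without WT pTreg replicate 1 (0.86, adjusted p = 0.309). Ly6c1, a surface protein of naive and memory cells, was at 176, 211 and 158 FPKM in CD28KO pTreg, against 62.3, 124 and 106 FPKM in WT pTreg (0.94 ± 0.25, adjusted p = 0.334).

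**Figure D4:**
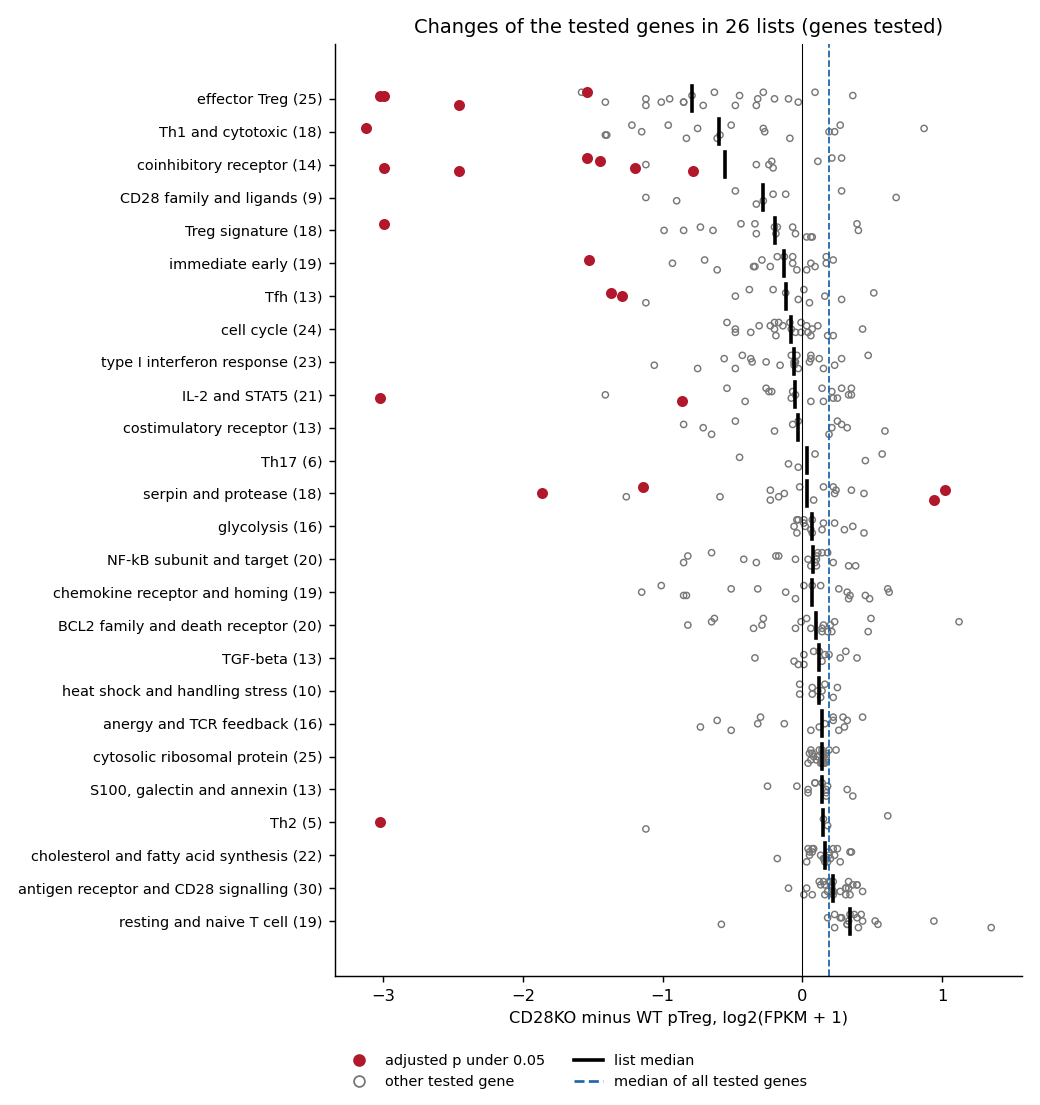
Change of each tested gene in 26 lists, CD28KO minus WT pTreg in log2(FPKM + 1), with the number tested in brackets, black bars for list medians, filled red points at an adjusted p under 0.05 and a dashed line at the median of all tested genes (0.19). The effector Treg (-0.79), Th1 and cytotoxic (-0.60) and coinhibitory (-0.56) lists have the lowest medians and the resting and naive T cell list the highest (0.34).

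Leaving out WT pTreg replicate 1 changed which genes were called. Without it 35 genes were called, 34 of them lower (0.296%), and 18 of the 24 remained. Cebpa, Gjb2, Ier5l, Lag3, Ttc39c and Serpinb1a lost their call. All 17 new calls were lower in CD28KO pTreg and many are interferon-induced. Iigp1, an immunity-related GTPase, was at 11, 16.1 and 14.8 FPKM in CD28KO pTreg, against 14.1, 40.6 and 45.8 FPKM in WT pTreg (-1.58 ± 0.28 without replicate 1, adjusted p = 0.0262). WT pTreg replicate 1 lay within the CD28KO range, and the other WT libraries lay well above it. Gbp2, Zbp1, Tgtp1, Tgtp2, Igtp and Gbp1, further GTPases and sensors of this response, had changes between -0.69 and -0.99 without that library. WT pTreg replicate 1 lay within the CD28KO range for Gbp2 and below every CD28KO library for the other 5. Among all tested genes it was the lowest of the 6 libraries in 85.8%.

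With all 6 libraries, limma called 0 of 23 genes of the type I interferon list, 5 had an unadjusted p under 0.05, and the median change of the list was -0.06. Without WT pTreg replicate 1 the list had 4 lower, with Iigp1, Gbp2 and Zbp1 among them, and a median of -0.42, beside -0.06 for all genes, and after quantile normalization of all 6 it had 4 lower (Iigp1, Gbp2, Zbp1 and Oas1a). WT pTreg replicate 1 was the lowest WT library in 23 of 23 genes of this list, beside 91.5% of all tested genes. Of the other genes named above, Igtp passed in limma after quantile normalization (adjusted p = 0.0304). Gbp1 (0.172), Tgtp1 (0.182) and Tgtp2 (0.276) did not. The part of the overall scale of WT pTreg replicate 1 in the interferon values was not tested.

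**Figure D5:**
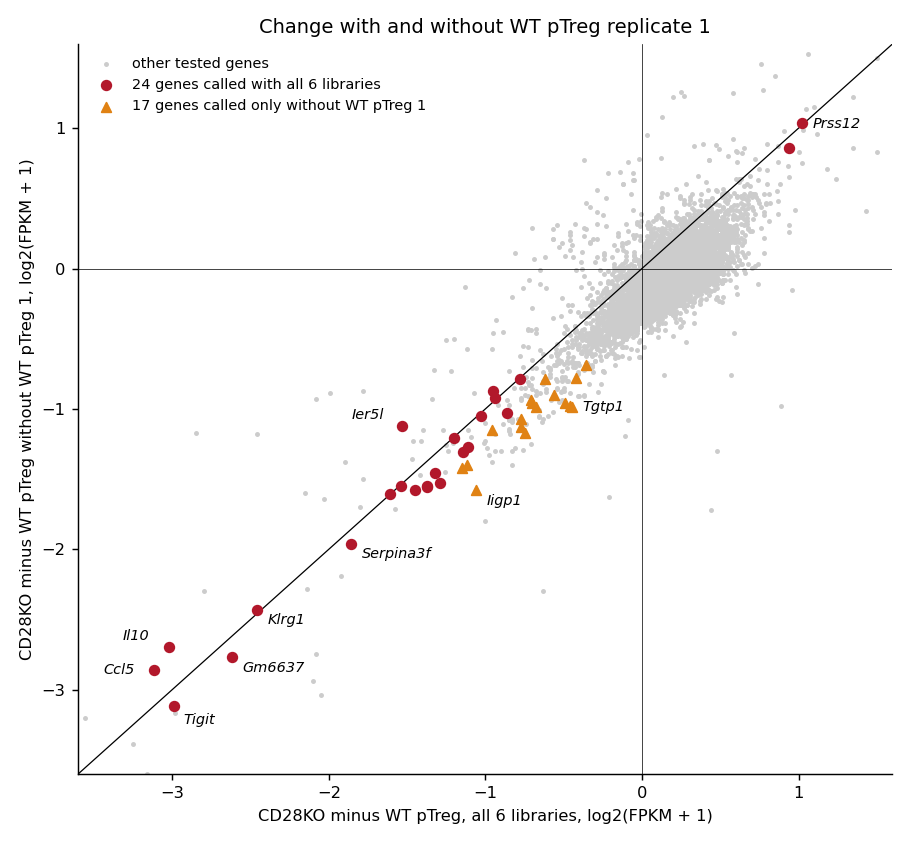
Change of each tested gene, CD28KO minus WT pTreg in log2(FPKM + 1), with all 6 libraries (horizontal axis) and without WT pTreg replicate 1 (vertical axis), the diagonal marking equal values and 34 genes lying outside the axes. The 24 called genes (red circles) stay near the diagonal, while the 17 genes called only without that library (orange triangles) lie below it.

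Other settings moved the count as well. Quantile normalization, which gives every library the same distribution, called 92 genes, 79 of them lower (0.689%), and 22 of the 24 were among them. Replicate numbers were taken to pair the libraries of the genotypes, which the labels do not state. With the number as a block 42 genes were called, 33 lower (0.288%) and 9 higher. All 24 were retained, and Il7r, Ebi3, Gzmb and Fgl2 were among the added ones. With a pseudocount of 0.1, which gives low genes more weight, 9 remained. With the compared groups alone in the fit 13 genes were called, of which 8 were among the 24, and 16 of the 24 lost their call. Il10, Ccl5, Tigit, Serpina3f and Miat were called under each of the 30 alternative settings, and none of the 24 changed sign under any of them.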

How the data were processed

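RNA-seq values of 18 libraries of sorted mouse spleen T cells were used, of which the 3 CD28KO pTreg and 3 WT pTreg libraries are compared here. The authors deposited 1 FPKM value per gene symbol and library. The unit is inferred from Cufflinks, named in the submitters' processing notes with Trimmomatic 1, TopHat2 2.0.11 and the GRCm38 build, and from the fractional, never negative values. The annotation, the strand setting and the read counts are not given in the sources used here, so depth is unknown, and overlapping or near-identical genes may share reads.

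Of 26665 genes listed, 11469 entered the test, since they reached 1 FPKM in 3 or more of the 6 pTreg libraries. FPKM was put on the log2(FPKM + 1) scale (pseudocount 1) and fitted in limma 3.58.1 (R 4.3.3), with 1 mean per group over all 18 libraries, a variance trend and 12 residual degrees of freedom. Tests are two-sided, with Benjamini-Hochberg adjustment over the 11469 genes and a threshold of 0.05. The same fit gave the differences of CD28 effects between pTreg and tTreg or Tconv. The code was tested on simulated data.

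The members and the 35 gene lists (599 entries, 583 in the files, 478 tested) were chosen with earlier results of these data known, as were the tests. The text names Cd28, Foxp3 and Nrp1 as checks, the 20 called genes with the largest change each way apart from unnamed gene models and small RNAs, up to 4 further members per list by smallest p, and a fixed set of Treg genes. Genes of the called sets under other settings, Myo1f, S100a4, S100a6, and a few further list members were named after their values were seen. A few genes that entered the tests and counts are not reported here by name. Positions are from GENCODE mouse release M21 on GRCm38 and promoters from RefSeq (GRCm38.p6), and the annotation used by the authors may not be the same.

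Replicate numbers come from the titles. Deviations from the group means of CD28KO and WT libraries with the same number correlated at 0.407, 0.124 and 0.495, all above 0.1. The numbers were therefore taken to pair the libraries, and a replicate block was run as an alternative to the main fit. The titles state no shared batch and libraries with different numbers were not compared in this way, so the pairing is an assumption. The other alternatives were a pseudocount of 0.1, other filters, quantile normalization, rescaling without Mir5105, median centring, no variance trend, fewer groups in the fit and leaving out libraries.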

Additional observations from a re-analysis of the deposited data

Results flagged for a closer look

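In 7 results the CD28 effect in Nrp1-negative Treg differed from that in another population by a test of the difference itself. Against Nrp1+ Treg, the difference of effects was -1.54 for Miat and -1.68 for Serpina3f on the log2 scale. Against Tconv it was -1.44 for Miat and -1.35 for Serpina3f. These stem from falls in CD28KO pTreg of genes that were low in both genotypes of the other populations. For Miat, and for Serpina3f in Tconv, those levels leave little room for a change on the log2(FPKM + 1) scale, so a smaller fold there is not shown. Against Tconv it was also 2.51 for Myo1f, 3.34 for S100a4 and 3.13 for S100a6, genes that fell in CD28KO Tconv and overlapped between the genotypes in pTreg. Miat lost the call against Nrp1+ Treg after quantile normalization (adjusted p = 0.0822) and Serpina3f with Treg libraries alone in the fit (adjusted p = 0.059). Both lost it with a pseudocount of 0.1 (adjusted p = 0.847). Of 29 alternatives, the call against Tconv was lost in 5 for Miat, 19 for Serpina3f, 3 for Myo1f, 21 for S100a4 and 24 for S100a6. With the compared groups alone all 5 were lost (adjusted p = 0.0695 for Miat and 0.341 for Serpina3f). Miat also lost it after quantile normalization (0.0739) and median centring (0.108), and Serpina3f without WT pTreg replicate 3 (0.118). Without WT pTreg replicate 1 it was lost for S100a4 and S100a6 (adjusted p = 0.157 for both).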

How the results depend on the processing

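The 24 called genes gave 538 of 720 gene and setting pairs with the call kept, 182 with it lost and 0 with the sign changed, and 9 of the 24 kept their call in all 6 fits that left out a pTreg library. The count of 24 became 9 (pseudocount 0.1), 92 (quantile normalization) and 60 (median centring), of which 9, 22 and 17 were among the 24. With the compared groups alone it was 13, of which 8 were among the 24, and 16 of the 24 were lost. It was 100 without the 3 libraries that stand apart (WT pTreg 1, WT Tconv 1 and CD28KO Tconv 3). It was 53 with quantile normalization and WT pTreg 1 left out, and 42 with the replicate block. Leaving out a replicate gave 9 (without CD28KO pTreg 2) to 35 (without WT pTreg 1), with 14 and 15 without CD28KO pTreg 1 and 3 and 13 without WT pTreg 2. The rescaled, unfiltered, untrended and other filter settings stayed within 1.5 times.

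The count of 2 for the difference from Nrp1+ Treg was 0 with a pseudocount of 0.1 (limma, 106 at an unadjusted p under 0.05), 7 with no filter, 4 without the 3 libraries and 1 in each of quantile normalization, median centring, compared groups alone, the 12 Treg libraries alone and quantile normalization without WT pTreg 1. It stayed at 2 in every fit that left out a replicate and with the replicate block. The count of 5 for the difference from Tconv was 1 with a pseudocount of 0.1, 12 with no filter, 9 with the filter over 18 libraries, 3 after quantile normalization or rescaling, 1 after median centring, 2 with no variance trend, 0 with the compared groups alone (limma, 305 unadjusted), 23 without the 3 libraries, 9 with the replicate block and 0 with quantile normalization without WT pTreg 1 (limma, 328 unadjusted). Leaving out a replicate gave 2 to 15, the highest without CD28KO Tconv 3.

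Uncalled changes near 0 turned sign. Under quantile normalization, rescaling, median centring, the fit without the 3 libraries, and quantile normalization without WT pTreg 1, Bcl2 (0.14) was -0.06, -0.01, -0.07, -0.26 and -0.21, Foxp3 (0.10) was -0.05, -0.05, -0.11, -0.20 and -0.15, and Il2ra (0.06) was -0.11, -0.09, -0.15, -0.38 and -0.34. S100a6 (0.09) was -0.07, -0.06 and -0.12 under the first 3, and S100a4 (0.17) was -0.03 after median centring. Leaving out a replicate gave -0.26 to 0.37 for Bcl2, -0.20 to 0.26 for Foxp3, -0.38 to 0.28 for Il2ra, -0.23 to 0.05 for Myo1f (-0.05 in full) and -0.12 to 0.23 for S100a6. Icos passed in 4 settings. The causes were not tested, and unknown depth limits statements on genes under 1 FPKM.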
